A study of Mus musculus with 2 samples.

Results

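Lymphatic endothelial cells line the vessels that drain fluid, absorbed fat and migrating immune cells from the intestinal wall. Here they were the 218 cells, of 16190 in all, that met a rule on marker transcripts in 2 single-cell RNA-seq libraries of sorted mouse intestinal lamina propria. Members were chosen by measured values: at least 1000 unique molecular identifiers (UMIs, one per captured transcript), at most 20% of UMIs from mitochondrial genes, at least 2 UMIs of Lyve1, at least 1 UMI of Mmrn1, Prox1 or Flt4, and none of Epcam or C1qa. The ApcMin library held 40 of them among 7593 cells past the depth and mitochondrial limits, and the VApcMinL library held 178 among 8597.

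Both libraries came from C57BL/6 mice, aged 11 weeks in the deposited labels and the paper's methods (10 weeks in its results), that carried the Min mutation in 1 copy of Apc, a tumor suppressor whose loss starts intestinal adenomas. The ApcMin library was ApcMin/+;Lef1 +/+. The VApcMinL library was ApcMin/+;Lef1 fl/fl; Villin-Cre, in which Cre driven by the Villin promoter deletes Lef1, a transcription factor of the Wnt pathway in intestinal epithelium and not in endothelium. Cells were freed with EDTA and then Liberase TL and sorted as viable cells negative for Ter119, Epcam and CD45, so that the libraries set lamina propria cells of Min mice with and without epithelial Lef1 side by side. There was 1 library per genotype, and the number of mice behind each is not given in the sources used here, so genotype, animal and library cannot be told apart and no test was run.

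As background, lymphatic endothelium arises from veins when the transcription factors Sox18 and Nr2f2 switch on Prox1, which holds its identity for life. The cells then depend on Vegfc, which signals through the receptor tyrosine kinase Flt4 (Vegfr3), and they guide dendritic cells and T cells with the chemokine Ccl21. In the intestine, lacteals at the center of each villus take up chylomicrons, and the lymphatics around the crypts also secrete growth factors for epithelial stem cells.

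The libraries held 93203061 UMIs in ApcMin and 101609269 in VApcMinL, and cells past the limits had medians of 9663 and 6792 UMIs. Lymphatic endothelial cells had medians of 8557 UMIs in ApcMin (2625 to 26024) and 5734 in VApcMinL (1009 to 23423), with 3082 and 2329.5 genes detected. Their mitochondrial share had medians of 2.24% and 2.86%. The class sums were 385386 and 1179458 UMIs, so levels in ApcMin are taken over a smaller total. No lymphatic barcode occurred in both libraries, and 24 of all passing barcodes did. Levels are given as CPM, the UMIs of a gene per 1000000 UMIs summed over a class, and intervals are exact 95% intervals that cover counting error only.

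Of the transcripts that chose the cells, Lyve1, a hyaluronan receptor of lymphatic capillaries, stood at 3474 CPM in ApcMin and 4512 CPM in VApcMinL. Mmrn1, a secreted multimerin, stood at 3516 and 4330 CPM, Prox1 at 592 and 556 CPM, and Flt4 at 1126 and 1315 CPM. Most members carried more than the rule asked for: 38 of the 40 ApcMin cells and 152 of the 178 VApcMinL cells had UMIs of Mmrn1, Prox1 and Flt4 together. Just inside the Lyve1 threshold, with exactly 2 UMIs, lay 1 ApcMin cell of 18965 UMIs without Ccl21a or Reln, and 6 VApcMinL cells with a median of 1599.5 UMIs, of which 5 had Ccl21a and 6 had Reln. Just outside, with 1 Lyve1 UMI and all else met, lay 1 ApcMin barcode of 17773 UMIs, again without Ccl21a or Reln, and 13 VApcMinL barcodes with a median of 1778 UMIs, of which 6 had Ccl21a and 8 had Reln. The cells on either side of the threshold were thus shallow in VApcMinL and deep in ApcMin.

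Lymphatic endothelial cells made up 0.527% (0.377 to 0.717) of ApcMin cells and 2.07% (1.78 to 2.39) of VApcMinL cells. The share was higher in the VApcMinL library, with a ratio of 3.93 (2.78 to 5.69). Blood endothelial cells, taken by a mirrored rule on Flt1 with Plvap, Emcn or Vwf and without Lyve1, Prox1 or Mmrn1, made up 1.88% and 7.05%, a ratio of 3.74 (3.11 to 4.52). Within the endothelium the lymphatic part was 21.9% (16.1 to 28.6) in ApcMin and 22.7% (19.8 to 25.8) in VApcMinL, a ratio of 1.04 (0.734 to 1.5). The endothelial compartment as a whole therefore took the larger share, and its lymphatic part was of like size in both libraries. The sort against Epcam, CD45 and Ter119 sets part of every share of all cells. After barcodes with epithelial, immune or erythroid transcripts were left out, the lymphatic share was 0.972% of 3599 and 3.42% of 5112 cells, a ratio of 3.52 (2.44 to 5.22). Per fibroblast the ratio was 4.56 (3.22 to 6.59), and with cells taken by an order-of-magnitude call on depth it was 2.58 (1.71 to 3.96).

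**Figure D1:**
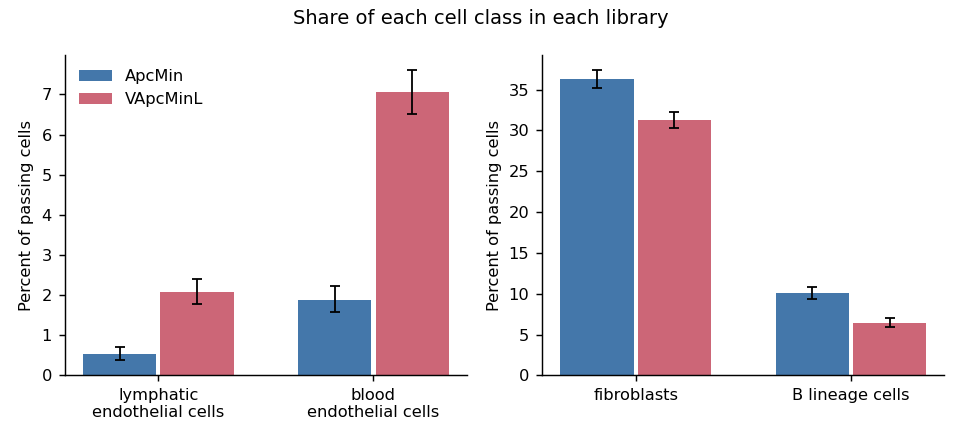
Percent of passing cells in each class for the ApcMin and VApcMinL libraries, with exact binomial intervals as error bars. Lymphatic endothelial cells stood at 0.527% and 2.07% and blood endothelial cells at 1.88% and 7.05%, while fibroblasts and B lineage cells took smaller shares in VApcMinL.

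The label was set beside 22 lymphatic markers that the rule did not use. The list was chosen with earlier results of these data known, and its Ccl21a was among the markers given for this part. Of the 19 with at least 200 UMIs over both endothelial classes, 18 were at least 2-fold higher in lymphatic than in blood endothelial cells in both libraries, with median log2 ratios of 3.65 in ApcMin and 3.95 in VApcMinL. Over all 4763 genes past the same minimum, 6.7% were higher by that measure, with median log2 ratios of 0.06 and 0.10. The summed level of the list was 22728 and 23179 CPM in lymphatic cells against 1127 and 1193 CPM in blood endothelial cells. Between the libraries none of the 18 list members measured in lymphatic cells lay past 2-fold. Members of both libraries thus carried lymphatic markers beyond the genes they were chosen on, at like summed levels. As the blood endothelial rule barred Lyve1, Prox1 and Mmrn1, an excess over that class was likely beforehand. The comparison is a description and no independent check of the label.

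Ccl21a, the chemokine that draws Ccr7-bearing dendritic cells and T cells into lymphatics, stood at 9531 CPM in ApcMin and 8870.2 CPM in VApcMinL. Blood endothelial cells had 0 and 2.36 CPM, so that the ratio was at least 3283-fold in ApcMin (against a floor of 3 counts) and 3754-fold in VApcMinL. It marked nearly every member. At an equal depth of 1000 UMIs drawn from each cell, with 0 cells left out, 95% and 91.0% of lymphatic cells had a Ccl21a UMI (97.5% and 97.2% unthinned), against 0% and 0.495% of blood endothelial cells, whose median depths were 5427 and 4136 UMIs. The Ccl21a level itself is uncertain: 71.6% of the 50-base words of its transcript occur in a near-identical copy, Gm21541, which took 70 and 159 UMIs in these cells.

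Reln, a large secreted glycoprotein that lymphatic endothelium releases toward smooth muscle, stood at 2042 CPM in ApcMin and 2524 CPM in VApcMinL, against 0 and 0.295 CPM in blood endothelial cells. Thinned, it was found in 92.5% and 87.6% of lymphatic cells and in 0% and 0% of blood endothelial cells. Fgl2, a membrane prothrombinase that also restrains immune cells, stood at 2922 and 3125 CPM, against 13.5 and 28.9 CPM in blood endothelial cells. Thinned, it was found in 87.5% and 90.4% of lymphatic cells and in 0% and 2.48% of blood endothelial cells. Among fibroblasts 7.73% and 9.96% had a UMI of Fgl2. Both genes separated the endothelial classes cell by cell. Podoplanin (Pdpn), the mucin that also activates platelet Clec2, stood at 509 and 394 CPM against 39.7 and 32.8 CPM, and the scavenger receptor Stab1 at 641 and 697 CPM against 65.8 and 57.3 CPM. Thy1, an adhesion glycoprotein of lymphatic and T cells, stood at 272 and 246 CPM against 2.90 and 16.0 CPM. Fibroblasts also held Pdpn, at 183 and 183 CPM, and Thy1, at 45.2 and 43.8 CPM. The list had exceptions. Hoxd8 was 1.34 times as high in ApcMin and 2.54 times in VApcMinL, and Nts, a neuropeptide of lymphatic capillaries, had only 12 and 89 UMIs. Thinned, Stab2 was found in no lymphatic cell, and Ptx3 in 0% and 1.69%, against 2.21% and 1.52% of fibroblasts.

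**Figure D2:**
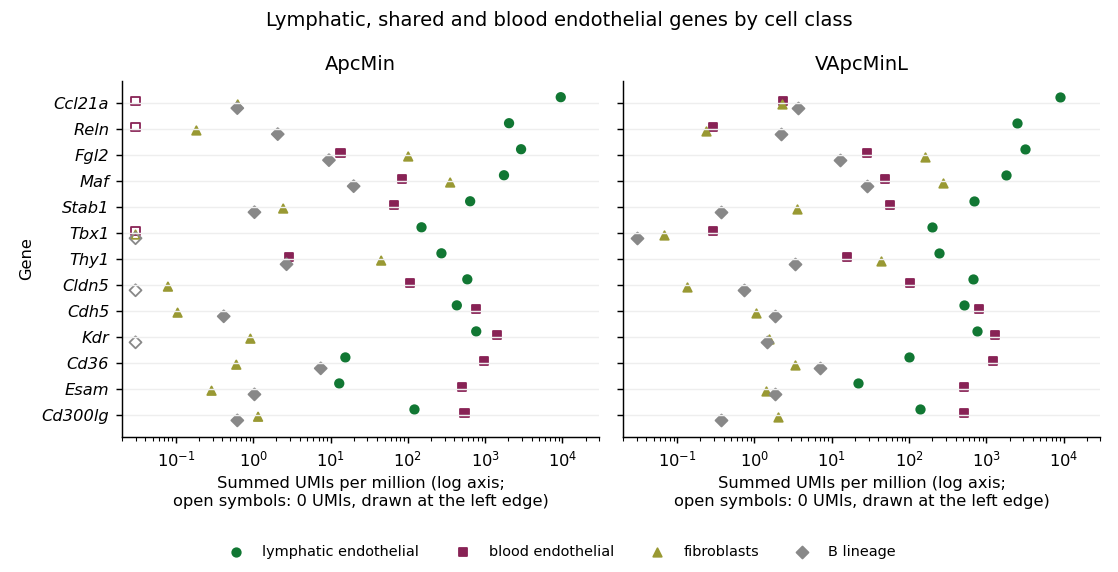
Summed level (CPM) on a log axis for lymphatic, shared and blood endothelial genes in 4 cell classes, with 1 panel per library and open symbols for 0 UMIs. Ccl21a, Reln, Fgl2 and Tbx1 are each highest in lymphatic cells, with Fgl2 also found in fibroblasts, while Cd36 and Esam lie to the right in blood endothelial cells.

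Of 22 blood endothelial genes, 13 were measured in that comparison and 10 were at least 2-fold lower in lymphatic cells in both libraries, where 10.2% of all 4763 genes were. The median log2 ratios were −4.46 and −3.64. Vwf, the clotting factor carrier of blood vessels, Esm1, Sox17, Gja5 and Madcam1 had no UMI in any lymphatic cell. Thinned to 1000 UMIs, Esm1 was found in 15.4% and 12.2% of blood endothelial cells and Sox17 in 14.7% and 15.2%. Vwf was in 4.90% and 6.77% of them, Gja5 in 1.40% and 1.16% and Madcam1 in 0% and 0.495%. A count of 0 for Gja5 or Madcam1 therefore says little. The fatty acid carrier Cd36 stood at 15.6 and 99.2 CPM against 970.4 and 1237 CPM in blood endothelial cells, and the semaphorin and Vegfa co-receptor Nrp1 at 15.6 and 31.4 CPM against 1079 and 891 CPM. Flt1, which only the blood endothelial rule used, had UMIs in 0 and 4 lymphatic cells. Aqp1, a water channel of capillaries and lacteals alike, was among the measured members that were not lower, at 1124 and 1473 CPM against 594 and 890.3 CPM. Not all the lower genes were scarce. Fabp4 stood at 319 and 832 CPM against 7049 and 7942 CPM, and Gpihbp1, the capillary anchor of lipoprotein lipase, at 319 and 441 CPM against 1017 and 988 CPM. Drawn to 1000 UMIs, 22.5% and 33.1% of lymphatic cells had a UMI of Fabp4, a fatty acid binding protein, and 32.5% and 35.4% one of Gpihbp1, against 92.3% and 86.6%, and 56.6% and 44.6%, of blood endothelial cells.

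Among 22 genes of endothelium in general, all were measured, 2 were higher and 6 were lower in lymphatic cells, against 6.7% and 10.2% of all genes. Cldn5, the main claudin of endothelial tight junctions, was higher, at 589 and 668 CPM against 106 and 102 CPM. Kdr (Vegfr2) stood at 768 and 766 CPM against 1432 and 1313 CPM, and VE-cadherin (Cdh5) at 431 and 514 CPM against 768 and 815 CPM. Pecam1, Eng, Fli1, Sox7, Esam and Clec14a were the lower members. Esam, a junctional adhesion protein, stood at only 13.0 and 22.04 CPM against 506 and 519.6 CPM.

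**Figure D3:**
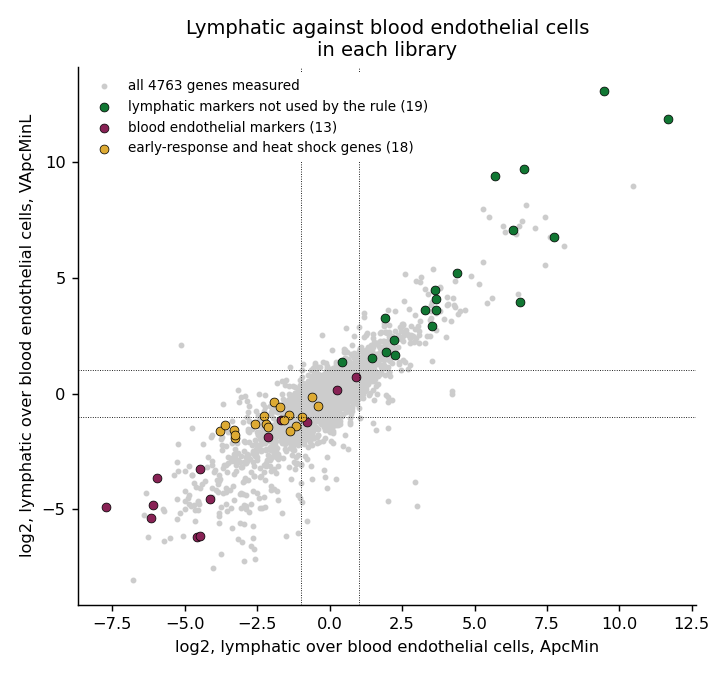
Log2 ratio of lymphatic over blood endothelial cells for 4763 genes, ApcMin on the x axis and VApcMinL on the y axis, with dotted lines at 2-fold and genes at 0 UMIs set to a floor of 3 counts. Lymphatic markers lie at the upper right (medians 3.65 and 3.95), blood endothelial markers at the lower left (medians −4.46 and −3.64), and early-response and heat shock genes below 0.

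By rank of the lesser ratio of both libraries, the 12 genes most in excess in lymphatic cells were Ccl21a, Reln, Lcn2, Sh3gl3, Col23a1, Gpm6a, Wipf3, Fgl2, Dtx1, Mrc1, Pard6g and Il7. Lcn2, which binds bacterial siderophores and so withholds iron, stood at 1383 CPM in ApcMin and 2363 CPM in VApcMinL, against 0.968 and 4.73 CPM in blood endothelial cells. The mannose receptor Mrc1 stood at 192 and 206 CPM against 1.94 and 1.18 CPM. Pard6g, a subunit of the Par polarity complex, stood at 711 and 673 CPM against 7.74 and 4.43 CPM, and the transmembrane collagen Col23a1 at 529 and 461 CPM against 3.87 and 3.25 CPM. These levels lay close together between the libraries apart from that of Lcn2, whose ratio was 1.71 (1.56 to 1.88). At the other end stood Jam2, Col13a1, Nes, Irx3, Ly6c1, Epha4, Mcf2l, Plscr2, Nostrin, Scarb1, Edn1 and Fabp5. Lymphatic cells held 1 UMI of Jam2, a junctional adhesion molecule, in each library, where blood endothelial cells had 289 and 227 CPM. The vasoconstrictor endothelin (Edn1) stood at 5.19 and 6.78 CPM against 164 and 216 CPM, and the lipoprotein receptor Scarb1 at 7.78 and 4.24 CPM against 258 and 298 CPM.

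The promoters of the lymphatic genes are shown because these genes were high together and because Maf, a basic leucine zipper factor, and Fli1, an Ets factor, were measured in the same cells. RefSeq promoters (GRCm38.p6) matched 18 of the 22 markers not used by the rule. Mmrn1 (chr6:60944067-60944316, plus strand) chose the cells. Reln (chr5:22344706-22344955, minus strand), Fgl2 (chr5:21372423-21372672, plus strand) and Ccl21a (chr4:42773992-42774241, minus strand) did not. Each line gives the 250 bases before the annotated RefSeq start, 5′ to 3′ on the gene's strand. Whether transcription begins there in these cells was not tested. Capitals mark the Maf half-site TGCTGA and the Ets core TTCCGG, searched on both strands.
Mmrn1: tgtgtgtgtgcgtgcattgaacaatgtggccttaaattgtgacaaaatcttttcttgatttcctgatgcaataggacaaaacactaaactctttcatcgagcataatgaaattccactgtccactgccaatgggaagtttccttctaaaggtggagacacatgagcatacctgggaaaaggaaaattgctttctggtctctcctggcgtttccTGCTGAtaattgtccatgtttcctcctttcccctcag
Reln: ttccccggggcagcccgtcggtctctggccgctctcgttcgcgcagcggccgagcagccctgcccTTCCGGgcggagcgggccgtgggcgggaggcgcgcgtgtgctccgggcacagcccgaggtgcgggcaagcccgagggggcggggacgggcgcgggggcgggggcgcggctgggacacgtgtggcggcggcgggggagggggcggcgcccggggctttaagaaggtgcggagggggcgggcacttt
Fgl2: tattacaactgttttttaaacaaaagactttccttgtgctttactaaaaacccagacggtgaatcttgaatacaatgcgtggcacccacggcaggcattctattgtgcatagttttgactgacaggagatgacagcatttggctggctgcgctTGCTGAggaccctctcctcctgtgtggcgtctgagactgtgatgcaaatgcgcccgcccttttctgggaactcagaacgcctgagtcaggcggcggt
Ccl21a: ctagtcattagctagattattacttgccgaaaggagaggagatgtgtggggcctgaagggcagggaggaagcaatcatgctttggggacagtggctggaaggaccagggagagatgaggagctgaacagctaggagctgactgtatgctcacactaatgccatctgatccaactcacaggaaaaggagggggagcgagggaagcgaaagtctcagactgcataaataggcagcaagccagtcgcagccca

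TGCTGA occurred once before Mmrn1 and once before Fgl2, and TTCCGG once before Reln. Neither was found in that window before Ccl21a. TGCTGA was in 16.1% of all 32851 promoter windows, in 12.4% of the 241 matched genes higher in lymphatic than in blood endothelial cells and in 18.1% of the 371 matched lower genes. For TTCCGG the shares were 12.03%, 11.2% and 15.9%. Of the 18 matched markers 4 held TGCTGA (22.2%) and 3 held TTCCGG (16.7%). A gene counted if any of its windows matched, so gene shares and window shares are not in like units. These counts are small, and a match is a description, not a binding site or a cause.

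Among 17 transcription factors of lymphatic specification, 12 were measured against blood endothelial cells, of which 3 were higher and 2 lower, where 6.7% and 10.2% of all genes were. Nr2f2, the venous nuclear receptor that acts with Prox1, stood at 921 CPM in ApcMin and 1026 CPM in VApcMinL, against 55.1 and 71.8 CPM. Maf stood at 1757 and 1817 CPM against 84.2 and 49.3 CPM, and fibroblasts held 353 and 273 CPM of it. Tbx1, a T-box factor needed for intestinal lymphatics, stood at 150.5 and 197 CPM against 0 and 0.295 CPM. All 3 were thus shared by the libraries at like levels. Thinned, Tbx1 was found in 20.0% and 19.7% of lymphatic cells and in no blood endothelial cell, fibroblast or B lineage cell. Sox18, which acts upstream of Prox1 in the embryo, stood at 179 and 268 CPM, below the 353 and 353 CPM of blood endothelial cells. Gata2, a factor of lymphatic valves, was among the lower members, at 13.0 and 48.3 CPM against 92.9 and 97.5 CPM.

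Receptors came next, where 15 of 18 genes for lymphangiogenic growth factors were measured, 2 of them higher and 2 lower, near the 6.7% and 10.2% of all genes. The Vegfc co-receptor Nrp2 stood at 911 and 660.5 CPM against 192 and 206 CPM in blood endothelial cells, and integrin α9 (Itga9), which binds fibronectin in valves, at 213 and 151 CPM against 18.4 and 20.1 CPM. Nrp2 and Nrp1 thus divided the endothelium, the first high in lymphatic and the second in blood cells. Tie1 stood at 278 and 355 CPM and Tek at 143 and 124 CPM, against 275 and 269.7 CPM and 178 and 211 CPM in blood endothelial cells. For adrenomedullin, which widens lymphatics, the receptor subunits Calcrl, at 397 and 349 CPM, and Ramp2, at 539.7 and 744 CPM, were both present.

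The growth factors themselves were scarce in the cells. Of 14 ligands and processing proteins none had the 200 UMIs needed to compare the libraries. Vegfc had 3 UMIs in each library, at 7.78 and 2.54 CPM, and Vegfd had 1 and 8. Fibroblasts held Vegfc at 36.9 and 38.9 CPM and Vegfd at 89.3 and 86.8 CPM. Against blood endothelial cells 5 were measured, 1 higher and 2 lower, Vegfa and Igf1 (all genes: 6.7% and 10.2%). Angpt2, a Tek ligand that lymphatics need to mature, was the higher member, at 77.8 and 99.2 CPM against 27.1 and 31.6 CPM.

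Of 24 Wnt and R-spondin genes 8 were measured against blood endothelial cells, with Rspo3 and Apc the 2 higher members and none lower (all genes: 6.7% and 10.2%). Rspo3, which potentiates Wnt signals to crypt stem cells, stood at 304 CPM in ApcMin and 319.6 CPM in VApcMinL, against 34.8 and 11.2 CPM in blood endothelial cells and 133 and 104 CPM in fibroblasts. Lymphatic cells thus held the highest Rspo3 level of the 4 classes compared. Thinned, 12.5% and 23.0% of them had a UMI (72.5% and 59.0% unthinned), against 3.50% and 0.33% of blood endothelial cells and 12.1% and 9.51% of fibroblasts, whose median depths were 13309 and 10597 UMIs. Wnt2, a canonical Wnt ligand, had 46 and 98 UMIs, or 119 and 83.1 CPM, with none in blood endothelial cells and 1.81 and 0.808 CPM in fibroblasts. Thinned, Wnt2 was found in 5% and 10.1% of lymphatic cells and in no blood endothelial cell. Other ligands were rare: thinned, Rspo1, Rspo2 and Wnt5b were found in no lymphatic cell, and Wnt5a in 0% and 1.69%.

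Lef1, the gene deleted in the epithelium of VApcMinL mice, had 0 UMIs in ApcMin lymphatic cells and 1 in VApcMinL, which is no check of the deletion. Axin2, a direct target of β-catenin, had 9 and 10 UMIs. Apc stood at 259 and 229 CPM against 96.8 and 107 CPM. None of the 4 list members measured between libraries lay past 2-fold.

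Of 18 measured genes of leukocyte traffic 5 were higher and 5 lower than in blood endothelial cells (all genes: 6.7% and 10.2%). Ackr2, a decoy receptor that removes inflammatory chemokines, stood at 114 and 150.1 CPM against 0 and 0.591 CPM. Thinned, Ackr2 was found in 17.5% and 11.8% of lymphatic cells, in no blood endothelial cell, and in 0.218% and 0.149% of fibroblasts. Il7, a survival cytokine of T cells and innate lymphoid cells, stood at 252 CPM in ApcMin and 176 CPM in VApcMinL, against 2.90 and 1.48 CPM. Spns2 and S1pr1, the exporter and receptor of sphingosine 1-phosphate, stood at 132 and 187 CPM and at 493 and 344 CPM. The lower members were Cxcl10, Cxcl12, Ackr4, Vcam1 and Jam2. Cxcl12, which holds stem and immune cells near vessels, stood at 208 and 252 CPM against 1203 and 1624 CPM. Vcam1 had 4 and 16 UMIs.

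Of 13 measured junction genes 2 were higher and 4 lower (all genes: 6.7% and 10.2%). Tjp1 stood at 202 and 192 CPM and F11r at 210.2 and 217 CPM, near their blood endothelial levels, while Jam3 had 5 and 4 UMIs and Ocln none. Of 21 matrix genes 4 were higher and 7 lower (all genes: 6.7% and 10.2%). Timp3, a matrix-bound inhibitor of metalloproteases and of Kdr, stood at 3871 and 4598 CPM against 1565 and 2097 CPM, and laminin α4 (Lama4) at 371 and 429.9 CPM against 143 and 133 CPM. Laminin α5 (Lama5), by contrast, had no UMI in lymphatic cells, against 44.5 and 50.5 CPM, and collagen IV (Col4a1) stood at 708 and 659 CPM against 1607 and 1537 CPM. The laminin α chains thus differed in direction. Among guidance genes 3 of 12 were higher and 3 lower (all genes: 6.7% and 10.2%). The higher ones were semaphorins: Sema3a, which shapes lymphatic valves, stood at 192 and 222 CPM against 0 and 1.77 CPM, Sema3d at 309 and 273 CPM against 3.87 and 2.07 CPM, and Sema6a at 389 and 433 CPM against 128 and 136 CPM.

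Notch, BMP and TGF-β genes had 10 lower and 2 higher members of 19 measured, where 10.2% and 6.7% of all genes were. Notch4 had 0 and 8 UMIs, and Smad6, a feedback inhibitor of BMP signals, 1 and 0, where blood endothelial cells had 91.9 and 72.1 CPM of Notch4 and 65.8 and 84.2 CPM of Smad6. Id1, a target of BMP receptors, stood at 41.5 and 85.6 CPM against 544 and 460.2 CPM. The higher members were Dtx1, a ubiquitin ligase of the Notch pathway, at 304 and 244 CPM against 2.90 and 0.295 CPM, and the receptor Tgfbr2, at 799 and 738 CPM against 179 and 300.1 CPM.

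Valve and collecting-vessel genes were found in a part of the cells. Foxc2, which valves need, had UMIs in 10 of 40 and 21 of 178 members, and Cldn11, a claudin of valve cells, in 3 and 13. Thinned, Foxc2 was found in 2.5% and 3.37% of lymphatic cells and in 0% and 0.660% of blood endothelial cells. Of 11 measured members of this list 2 were higher than in blood endothelial cells, Itga9 and Emilin1, and 3 lower (all genes: 6.7% and 10.2%). Emilin1, an elastic fiber protein of lymphatic valves, stood at 158 and 160.2 CPM against 35.8 and 43.4 CPM.

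Of 11 measured lipid genes 1 was higher and 5 were lower in lymphatic cells (all genes: 6.7% and 10.2%). Fabp5, a fatty acid carrier, had 0 and 12 UMIs. Abca1, which exports cholesterol, was the higher member, at 275 and 316 CPM against 111 and 134 CPM. Cpt1a, the gate of fatty acid oxidation that lymphatic development relies on, had 16 and 47 UMIs, at 41.5 and 39.8 CPM against 44.5 and 37.2 CPM. Of 19 measured interferon and antigen presentation genes none was higher and 8 were lower, against 6.7% and 10.2% of all genes. The class I genes were close in both endothelia, with B2m at 2665 and 2313 CPM against 2192 and 2581 CPM. Isg15, an interferon-induced ubiquitin-like protein, was among the lower members, at 138 and 175 CPM against 335 and 784 CPM.

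Markers of cycling were found in few cells. Mki67, a proliferation marker, had UMIs in 0 of 40 and 3 of 178 members, and 40 of its 42 UMIs in VApcMinL lay in 1 cell. The same held for Top2a, with 62 of 63 UMIs in 1 cell, and Cenpf, with 60 of 61. ApcMin cells had 5 UMIs of Top2a in 4 cells. A count of 0 in 40 cells allows a share of cells with a Mki67 UMI of up to 8.81%, which limits detection at these depths and not the share of cycling cells.

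Between the libraries, 1382 genes had at least 200 UMIs over both sets of lymphatic cells. Of these 33 (2.39%) were called at least 2-fold higher in VApcMinL and 16 (1.16%) at least 2-fold lower, which describes these libraries and is no test. The median log2 ratio of VApcMinL over ApcMin was 0.03. Most genes thus lay close together. Cells that also carried at least 2 UMIs of Pdgfra, Flt1 or Cd79a, or any Ptprc, markers of fibroblasts, blood endothelium, B cells and leukocytes, numbered 7 in ApcMin and 10 in VApcMinL. Without these mixed cells 30 genes were higher and 7 lower.

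Early-response and heat shock genes, which stress and tissue dissociation switch on within minutes, were the list with most members past 2-fold. All 18 were measured, and 10 were at least 2-fold higher in VApcMinL (all genes: 2.39%) and none lower, with a median log2 ratio of 1.14. Atf3, a stress-induced transcription factor, stood at 44.1 CPM in ApcMin (interval 25.7 to 70.6) and at 276 CPM in VApcMinL (interval 247 to 308). Jun, a subunit of the factor AP-1, stood at 241 CPM (interval 195 to 296) against 1034 CPM (interval 977 to 1094), and Fos, its partner, at 514 CPM (interval 445 to 591) against 1291 CPM (interval 1227 to 1358). Their log2 ratios were 2.65, 2.1 and 1.33. The counting intervals treat the UMIs of a class as a single pool and cover neither the spread between cells nor that between animals. The small heat shock protein Hspb1 stood at 205 and 731 CPM and the co-chaperone Dnajb1 at 88.2 and 304 CPM, at log2 ratios of 1.83 and 1.79. Ier3, Zfp36, Fosb, Ier2 and Dusp1 were the other members past 2-fold, and Jund, at 669 and 649 CPM, was the one member with a negative ratio.

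In blood endothelial cells the same 10 genes had log2 ratios between −0.14 for Jun and 0.64 for Ier3. The summed level of the list was 7748 CPM in ApcMin and 14791 CPM in VApcMinL lymphatic cells, 25946 and 30723 CPM in blood endothelial cells, 24419 and 26183 CPM in fibroblasts, and 9307 and 12923 CPM in empty droplets. Lymphatic cells thus had the lowest levels of these 3 classes in either library, while B lineage cells lay lower, at 6916 and 5977 CPM. In lymphatic cells 11 of the 18 genes were at least 2-fold lower than in blood endothelial cells in both libraries (all genes: 10.2%). Whether the difference between the libraries differs between the classes, and the part of free RNA in it, was not tested.

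**Figure D4:**
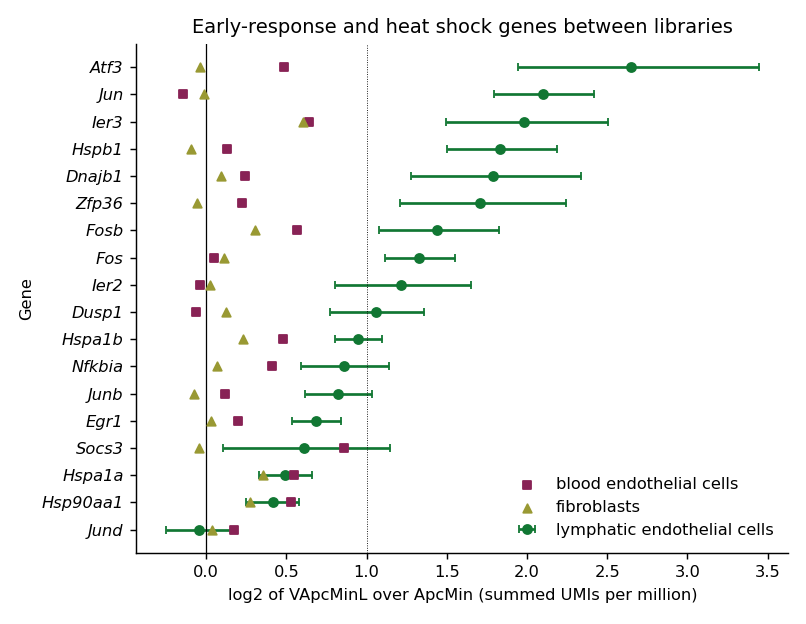
Log2 ratio of VApcMinL over ApcMin for the 18 early-response and heat shock genes in lymphatic endothelial cells (with exact 95% counting intervals), blood endothelial cells and fibroblasts; the dotted line marks 2-fold. Of the lymphatic values 10 lie past the line, from 1.06 for Dusp1 to 2.65 for Atf3, and no blood endothelial or fibroblast value does.

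Cell by cell, the list took a median of 0.246% of UMIs in ApcMin (quartiles 0.146% and 0.404%) and 0.502% in VApcMinL (quartiles 0.221% and 1.42%), with maxima of 7.93% and 11.7%. It reached 1% in 5 of 40 ApcMin cells (12.5%, 4.19 to 26.8) and in 54 of 178 VApcMinL cells (30.3%, 23.7 to 37.7), and these intervals overlap. In blood endothelial cells it reached 1% in 123 of 143 (86.0%) and 545 of 606 cells (89.9%). Among VApcMinL lymphatic cells, those at or above 1% held Ccl21a at 5565 CPM, against 10879 CPM in the others, and Reln at 2138 against 2759 CPM. They had a median of 6415.5 UMIs, against 5486.5. Their fibroblast list of 9 genes summed to 6366 CPM, against 397 CPM, and 7 of the 54 were mixed cells, against 3 of the other 124. The same split of ApcMin cells, 5 against 35, gave 5731 against 5717 CPM of the fibroblast list, 5749 against 10169 CPM of Ccl21a and 1132 against 2196 CPM of Reln. Among those 5 cells, 1, of 18965 UMIs, was the cell with 2 Lyve1 UMIs and neither Ccl21a nor Reln, and 1.65% of its UMIs were in the fibroblast list, so that the ApcMin values lean on it.

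**Figure D5:**
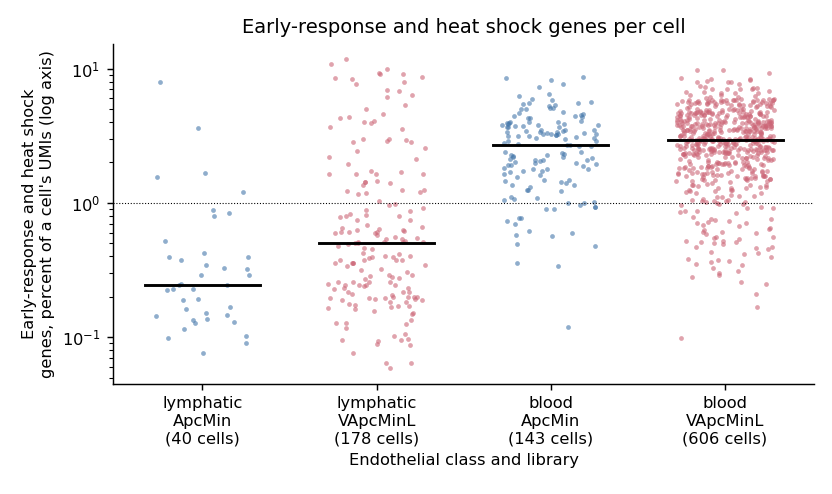
Percent of each cell's UMIs in the 18 early-response and heat shock genes, on a log axis, for lymphatic and blood endothelial cells of each library, with bars at the medians and a dotted line at 1%. The lymphatic medians are 0.246% and 0.502%, the blood endothelial medians 2.70% and 2.93%.

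Without the mixed cells 9 of the 18 genes were at least 2-fold higher in VApcMinL, with log2 ratios of 3.42 for Atf3, 2.67 for Jun and 1.6 for Fos. The set was not the same: Ier2 and Dusp1 stood at 0.95 and 0.79, below 2-fold, and Junb at 1.48, past it. Socs3 stood at 1.68 but had fewer than 200 UMIs in these cells and was not counted. With a common minimum of 2625 UMIs in both libraries, chosen after seeing the data, 10 were. Over all alternatives the count ran from 1 to 14, with 1 when each cell was thinned to 1000 UMIs, where only 145 genes of any kind were measured. The part of dissociation, which was nominally the same for both libraries, and of depth in the result was not tested.

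Upstream sequences of 4 of these genes are shown because they were higher together. RefSeq promoters (GRCm38.p6) matched 15 of the 18 genes, and windows are again the 250 bases before the annotated start. Jun lies at chr4:95052223-95052472 (minus strand), Fos at chr12:85473640-85473889 (plus strand), Atf3 at chr1:191183334-191183583 (minus strand) and Hspb1 at chr5:135887669-135887918 (plus strand). Capitals mark TGACG, the half-site bound by Creb and Atf proteins, and GAANNTTC, a pair of heat shock factor units, where N is any base, on both strands.
Jun: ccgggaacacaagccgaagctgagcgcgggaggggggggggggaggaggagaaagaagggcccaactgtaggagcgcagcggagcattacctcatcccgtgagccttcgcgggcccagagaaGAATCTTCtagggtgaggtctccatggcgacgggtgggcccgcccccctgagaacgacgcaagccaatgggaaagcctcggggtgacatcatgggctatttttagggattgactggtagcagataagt
Fos: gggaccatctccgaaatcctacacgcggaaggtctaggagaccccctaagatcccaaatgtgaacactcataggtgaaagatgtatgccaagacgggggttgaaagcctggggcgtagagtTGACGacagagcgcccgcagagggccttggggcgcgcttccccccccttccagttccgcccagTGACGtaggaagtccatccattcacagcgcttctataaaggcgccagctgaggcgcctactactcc
Atf3: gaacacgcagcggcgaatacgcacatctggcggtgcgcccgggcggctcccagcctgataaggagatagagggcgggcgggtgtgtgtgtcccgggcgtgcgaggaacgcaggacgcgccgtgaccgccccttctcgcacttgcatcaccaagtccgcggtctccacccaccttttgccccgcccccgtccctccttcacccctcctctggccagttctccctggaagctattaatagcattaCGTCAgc
Hspb1: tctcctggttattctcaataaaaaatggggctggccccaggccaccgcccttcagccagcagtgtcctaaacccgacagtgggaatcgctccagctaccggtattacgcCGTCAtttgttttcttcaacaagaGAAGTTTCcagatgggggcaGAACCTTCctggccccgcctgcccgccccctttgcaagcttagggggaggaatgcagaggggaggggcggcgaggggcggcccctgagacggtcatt

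TGACG was found in 6 of the 9 matched genes past 2-fold (Atf3, Dnajb1, Dusp1, Fos, Fosb and Hspb1) and in 17.8% of all 32851 windows. It was in 7 of the 15 matched list genes and in 32.6% of the 371 matched genes lower in lymphatic than in blood endothelial cells. A gene counted if any of its windows matched, so gene shares and window shares are not in like units. GAANNTTC was found in 2 of the 9, Jun and Hspb1, in 4 of the 15 and in 6.69% of all windows. The AP-1 site TGACTCA, in 4.46% of all windows, was in none of the 9. These matches describe the letters in the windows and name no site or cause.

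Outside that list, the genes of largest ratio with no single cell holding over 25% of their UMIs in both libraries together began with Rgs16, a brake on G protein signals. It stood at 25.9 CPM in ApcMin, from 10 UMIs, and 248 CPM in VApcMinL, from 293, a ratio of 9.57 (5.13 to 20.2). In blood endothelial cells it stood at 31.0 and 42.8 CPM. Sgk1, a kinase induced by glucocorticoids and osmotic stress, stood at 44.1 and 175 CPM, a ratio of 3.96 (2.41 to 6.93), and at 736 and 598 CPM in blood endothelial cells. Icam1, the integrin ligand on which leukocytes crawl, stood at 166 and 641 CPM, and at 311 and 537 CPM in blood endothelial cells. In VApcMinL cells at or above 1% of the early-response list Rgs16, Sgk1 and Icam1 stood at 594, 247 and 1501 CPM, against 38.2, 131 and 119 CPM in the others. In the 5 such ApcMin cells they stood at 18.0, 126 and 611 CPM, against 27.3, 30.3 and 91.0 CPM. Icam1 was thus higher in such cells of both libraries. For Sgk1 and Rgs16 there were too few ApcMin UMIs to say. Those 5 ApcMin cells include the 1 of 18965 UMIs with neither Ccl21a nor Reln.

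The flow-induced factor Klf2 stood at 267 and 559 CPM, a ratio of 2.09 (1.70 to 2.60), and at 1021 and 944 CPM in blood endothelial cells. Pim3, a survival kinase, stood at 75.2 and 209 CPM, and Serpina3n, a secreted protease inhibitor, at 119 and 298 CPM, with fibroblasts at 283 and 701 CPM. Gpx3, a secreted peroxidase that fibroblasts held at 1184 and 1501 CPM, had a log2 ratio of 1.55 in lymphatic cells, and of 2.92 without mixed cells. Fabp4 had one of 1.38, and of 0.47 without mixed cells, so that its place past 2-fold rested on them. With Hspb1, the list of 12 closed with Swt1, Plpp1 and Clca3a1, at log2 ratios of 1.06, 0.99 and 0.99.

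The genes at the lower end included Tnfaip2, Mga, Itih5, Tram1, Nbl1, Gbp2, Myadm, Kcnn3, Ifnar2, Trip11 and Cyp1b1, of which Tnfaip2 lay past 2-fold. Tnfaip2, induced by tumor necrosis factor, stood at 244 CPM in ApcMin and 95.8 CPM in VApcMinL, a log2 ratio of −1.35, with 94.8 and 99.3 CPM in blood endothelial cells. Gbp2, an interferon-induced GTPase, stood at 288 and 166 CPM, and Ifnar2, a subunit of the type I interferon receptor, at 202 and 119 CPM. Itih5 had a log2 ratio of −0.89, and of 0.36 without mixed cells, so that its direction rested on those cells.

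Transcripts of other cells were also among the genes past 2-fold, with 7 erythroid or fibroblast genes among the 16 lower ones. The 7 erythroid genes summed to 32331 CPM in ApcMin and 1523 CPM in VApcMinL lymphatic cells. All 4 that were measured were lower in VApcMinL, with Hbb-bs the most abundant, at 18522 and 801 CPM. A single cell held 60.8% of these UMIs in ApcMin and 64.0% in VApcMinL, and without mixed cells the sums were 17974 and 1679.9 CPM. Hemoglobin took over 1% of UMIs in 2 ApcMin cells and 1 VApcMinL cell, and the erythroid list had medians of 0.116% and 0.0572% per cell. Without cells over 1% in fibroblast or hemoglobin genes, an alternative chosen after seeing the data, 1 erythroid gene was lower. The 9 fibroblast genes summed to 5719 and 2653 CPM, with 5 measured, 3 lower (Dpt, Col3a1 and Dcn) and Dcn the most abundant, at 3122 and 1501 CPM. None of the 9 was at 0, and Pdgfra reached 2 UMIs in 5 ApcMin and 6 VApcMinL cells. Without mixed cells the fibroblast list summed to 179.5 and 516 CPM and none of its genes was lower in VApcMinL. The lower fibroblast sum of VApcMinL thus rested on mixed cells.

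The 10 B and plasma cell genes summed to 2338 and 9883 CPM, with 3 measured, all 3 higher in VApcMinL, and Igkc the most abundant, at 1279 and 5782 CPM. A single VApcMinL cell held 29.8% of these UMIs, and without mixed cells the sums were 2615 and 6825 CPM. Blood endothelial cells held 15571 and 12710 CPM of the list and empty droplets 139648 and 158273 CPM, so free immunoglobulin RNA was abundant in both libraries. The 11 epithelial genes summed to 10.4 and 314 CPM, with Fabp2 the most abundant, at 5.19 and 127 CPM, and Muc2 and Lyz1 at 0 beside Epcam, which the rule barred. Their sum was also higher in VApcMinL in empty droplets (811 and 10047 CPM), blood endothelial cells (27.1 and 391 CPM) and fibroblasts (17.3 and 209 CPM). The part of free RNA in the epithelial sums was not tested. Macrophage genes summed to 20.8 and 24.6 CPM and glial genes to 2.59 and 28.0 CPM, with Itgam, Sox10 and Gfap at 0. Smooth muscle and pericyte genes summed to 174 and 198 CPM, with Kcnj8 the most abundant, at 70.1 and 129.7 CPM, and Myh11 and Actg2 at 0. T cell and innate lymphoid genes summed to 431 and 270.5 CPM, of which Thy1 was the most abundant. With the empty-droplet profile subtracted, its share estimated from immunoglobulin and hemoglobin genes, 35 genes were higher and 18 lower in VApcMinL. As the share was fitted on them, this says nothing of the immunoglobulin and hemoglobin genes themselves, and the part of free RNA in their ratios was not tested.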

How the data were processed

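Values are deposited counts of UMIs, which the authors obtained by aligning 10x Chromium reads to GRCm38 with Cell Ranger (2.1.1 in the submitters' processing notes, 3.1.0 in the header of the deposited matrices). Raw matrices of 31053 genes were read here in Python 3.11.15 with pandas 2.3.3, numpy 2.4.6 and scipy 1.17.1, and figures drawn with matplotlib 3.10.9. Levels (CPM) are UMIs of a gene per 1000000 UMIs of a class. A gene needed 200 UMIs over the classes compared, and a count of 0 was set to a floor of 3 counts. Intervals are exact Poisson, binomial or conditional binomial. Named genes were the 12 of largest ratio in each direction with at most 25% of UMIs in 1 cell and at least 2 times the empty-droplet level (barcode ranks 45000 to 90000), and others come from 25 gene lists. A few genes that met these rules are not reported here. Members and lists were chosen with earlier results of these data known. The main results were redone under 23 alternatives, 2 of them added after seeing the data. No doublet caller was run, and cells with transcripts of a second type were left out as an alternative.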

Additional observations from a re-analysis of the deposited data

Results flagged for a closer look

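Adm, Cxcl1 and Myh11 had lymphatic over blood endothelial ratios of opposite direction in the libraries, each past 2-fold in both, which flagged them. For adrenomedullin (Adm), which widens lymphatics, the log2 ratio was −1.36 in ApcMin and 1.16 in VApcMinL. It rested on 10 and 85 lymphatic UMIs, at 25.9 and 72.1 CPM, against 66.8 and 32.2 CPM in blood endothelial cells. For the neutrophil chemokine Cxcl1 the log2 ratio was 1.48 in ApcMin and −1.29 in VApcMinL. Lymphatic cells held 563 and 105 CPM of it, and 1 ApcMin cell held 94.0% of the UMIs of that library. For the smooth muscle myosin Myh11 the log2 ratio was 2.01 in ApcMin and −4.66 in VApcMinL, but no lymphatic cell had a UMI, so both values come from the floor of 3 counts, against 1.94 and 64.1 CPM in blood endothelial cells. These differences were not tested.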

How the results depend on the processing

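No paired analysis was possible because there is only 1 library of either genotype. The share ratio, the gene counts and 7 of the 25 lists were redone under 15 to 19 of the 23 alternatives each. So were the genes named by rule, with some others. The other lists were not redone. Without mixed cells the summed fibroblast list changed direction, from 5719 and 2653 CPM to 179.5 and 516 CPM. Its gene counts went from 3 lower and 0 higher to 0 lower and 1 higher. Among the genes redone, no log2 ratio past 2-fold changed sign. Smaller log2 ratios between the libraries did: Itih5 went from −0.89 to 0.36 without mixed cells, and with cells thinned to 1000 UMIs Trip11 went from −0.76 to 0.85, Kcnn3 from −0.78 to 0.32 and Il7 from −0.52 to 1.51. Jund, Rspo3, Fgl2, Aqp1 and Nr2f2, between −0.05 and 0.39, also crossed 0. The share ratio of 3.93 moved to 2.58 (1.71 to 3.96) when cells were taken by an order-of-magnitude call on depth, and to 1.04 among endothelial cells alone. Elsewhere it lay between 3.52 and 4.56.

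The count of 33 genes higher in VApcMinL moved to 5 with cells thinned to 1000 UMIs, where 145 genes in place of 1382 were measured, to 64 with a minimum of 100 UMIs per gene and to 16 with one of 500. The count of 16 lower genes moved to 10 with the order-of-magnitude call, 25 with Lyve1 at 1 UMI, 7 without mixed cells, 3 thinned, 8 without the 5 deepest cells, 37 with 100 UMIs and 7 with 500. It moved to 4 without cells over 1% in fibroblast or hemoglobin genes, an alternative chosen after seeing the data. Against blood endothelial cells, 319 higher genes moved to 42 thinned, of 750 measured in place of 4763, 493 with 100 UMIs and 144 with 500, and 485 lower genes to 171 thinned and 281 with 500.

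Of 384 values of the 24 genes named between libraries, 347 kept their label and 37 moved. Of 384 for the 24 named against blood endothelial cells, 342 kept it and 42 moved. Of 416 for the other genes redone between libraries, which include early-response genes, 322 kept it and 94 moved.

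These results describe 2 libraries of 1 genotype each, from an unstated number of mice, so animal, library and genotype cannot be told apart. The sort set which cells were present. Members rest on transcripts, so lymphatic cells with little Lyve1, and those carrying an Epcam or C1qa UMI of whatever source (1 and 17, and 2 and 10, barcodes failed on that alone), were left out. Depth differed between the libraries, and 40 ApcMin cells give few UMIs for scarce genes. Transcript levels are not protein, and neither position in the villus nor vessel type was measured.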

Other observations

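Ceruloplasmin (Cp), a copper-binding ferroxidase that loads iron onto transferrin, stood at 945 CPM in ApcMin and 1058 CPM in VApcMinL, against 75.5 and 47.3 CPM in blood endothelial cells and 347 and 372 CPM in fibroblasts. Thinned to 1000 UMIs, it was found in 60% and 60.7% of lymphatic cells, 2.1% and 2.64% of blood endothelial cells and 26.1% and 27.8% of fibroblasts. The tetraspanin Cd9, which organizes integrins and extracellular vesicles, stood at 1019.8 and 1229 CPM against 267 and 352 CPM. Neither gene was used to choose the cells.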
